A study of Mus musculus with 16 samples.

Results

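The Fc gamma receptor family comprised 5 genes, namely Fcgr1, Fcgr2b, Fcgr3, Fcgr4 and Fcer1g, out of 18749 genes named on the arrays. They were chosen by name, as the mouse receptors for the constant part of IgG and the chain they share, and 7 probes measured them: 1 each for Fcgr1, Fcgr3, Fcgr4 and Fcer1g, and 3 for Fcgr2b. All 7 probes passed the filter on dim probes, which asks that at least 1 group be well above background throughout. Only 4 of them were above background on every untreated array, and the other 3 (Fcgr4 and 2 of Fcgr2b) passed through groups in which they were higher. Corpus callosum, the large white matter tract between the hemispheres, was taken from male C57BL/6 mice, and RNA was hybridised to 16 single-colour arrays. The mice were 7 to 8 weeks old on inclusion per the study's methods, not when tissue was taken. The groups were 3 untreated samples, 3 after 2 weeks and 4 after 4 weeks of chow with cuprizone (CPZ), and 6 from mice given CPZ for 4 weeks and then regular diet, with 1 array each. CPZ, which binds copper, is fed to mice to damage the cells that make myelin. The labels give a CPZ content of 0.2 to 0.4%, and the methods 0.2%. The methods name 2 days and 2 weeks of regular diet, which the labels do not separate, so the 6 regular diet arrays are 1 group of mixed times here. The controls were matched to the 4-week group in age and sex, so the 2-week and regular diet groups had no controls of their own.

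Fc gamma receptors bind the constant part of IgG on the surface of phagocytes. Fcgr1, Fcgr3 and Fcgr4 are activating receptors. They signal through the common chain encoded by Fcer1g, whose cytoplasmic ITAM motif is phosphorylated by Src family kinases and then recruits Syk. Fcgr2b is the inhibitory receptor and carries an ITIM motif of its own, which recruits the phosphatase encoded by Inpp5d. In the brain these receptors are known on microglia, the resident macrophages, and on macrophages at its borders.

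Of the promoters in RefSeq (GRCm38.p6), 250 bases before the start of each gene were searched on both strands for GAGGAA, the core bound by the myeloid factor PU.1, for TTCNNNGAA, the gamma-activated site, and for the core of interferon-stimulated elements. No pair of motifs overlapped in these windows. GAGGAA was found in 23.3% of all 32851 promoters in the table, TTCNNNGAA in 7.02% and the interferon element core in 2.98%. GAGGAA lay before Fcgr1, Fcgr3 and Fcgr4, TTCNNNGAA before Fcgr1 and the interferon element core before Fcgr4, and none of the 3 lay in the windows of Fcgr2b and Fcer1g. The windows of the 3 genes with a match are shown so that the matches can be read in place, with the matches in capitals on the strand of the gene, where GAGGAA reads TTCCTC on the opposite strand. For Fcgr3, which has 2 listed starts, the window of the downstream start is given. The arrays measured transcripts, not binding at these letters.
Fcgr1, chr3:96293970-96294219, minus strand: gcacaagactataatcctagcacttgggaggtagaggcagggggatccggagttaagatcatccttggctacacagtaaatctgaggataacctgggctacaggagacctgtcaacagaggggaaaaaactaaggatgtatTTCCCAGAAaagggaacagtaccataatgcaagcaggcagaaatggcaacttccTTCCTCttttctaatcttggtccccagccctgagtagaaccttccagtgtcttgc
Fcgr3, chr1:171059395-171059644, minus strand: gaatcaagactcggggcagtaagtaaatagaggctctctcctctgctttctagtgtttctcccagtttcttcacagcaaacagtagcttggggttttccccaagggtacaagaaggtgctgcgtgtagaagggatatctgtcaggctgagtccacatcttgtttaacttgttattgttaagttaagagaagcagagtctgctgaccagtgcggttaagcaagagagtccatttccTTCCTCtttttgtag
Fcgr4, chr1:171018676-171018925, plus strand: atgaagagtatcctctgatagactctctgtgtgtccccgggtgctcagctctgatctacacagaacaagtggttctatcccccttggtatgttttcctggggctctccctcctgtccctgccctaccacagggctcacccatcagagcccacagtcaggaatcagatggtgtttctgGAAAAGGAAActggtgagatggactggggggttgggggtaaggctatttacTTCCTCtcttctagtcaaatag

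Values below are log2 of the array signal after division by the 75th percentile of the signals of that array, so that 0 is the level of that percentile and 1 unit is a 2-fold difference. Levels of different probes cannot be compared. A gene was called when a probe passed an adjusted p under 0.05 in limma, with Benjamini-Hochberg adjustment over all probes tested, and differed at least 2-fold. In shares of all genes called, probes without a gene name count by their transcript accession. The arrays were assigned to samples through the authors' processed table, whose columns matched 1 array each (Pearson's r across probes at least 0.9973, next best at most 0.7737), and not as recorded for each file, which differed for 14 of the 16 arrays. The running number each scanner file carries equalled the order of the matched column for 16 of 16. With the recorded assignment no member was called in any comparison, and the differences at 4 weeks of CPZ were -0.24 to 0.48 for the 7 probes, so the differences below rest on the match. The slide held 4 arrays each of mixed groups, and within-slide values stand beside the results. Between 57.3% and 72.2% of probes were well above background on each array. The p-values measure only the spread between these samples. Fewer cells of a type and less RNA per cell cannot be told apart in whole tissue.

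Each of the 5 genes was higher in CPZ-treated than in untreated corpus callosum in most or all arrays. Yet none was called at 2 or 4 weeks with the fit as planned, against 0.0882% and 0.103% of all genes called higher. The differences at 4 weeks were 1.51 (Fcgr3) to 2.88 (Fcgr4) on the log2 scale over the 6 probes measured on any untreated array. With the seventh, for which only a bound holds, the median was 2.35, where the median over all 27505 probes was -0.03. At 2 weeks they were 1.39 (Fcer1g) to 2.58 (Fcgr4) over the same 6, with a median of 1.85 over the 7 against 0.03 for all probes. Each of the 7 probes was higher with an unadjusted p under 0.05 and by at least 2-fold in both comparisons. Of all probes, 4.25% at 2 weeks and 5.05% at 4 weeks were higher at that p, and 7.93% and 2.58% by at least 2-fold.

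Fcgr4, the activating receptor for IgG2 subclasses, had 3 untreated levels of -4.57, -5.25 and -4.71. After 2 weeks of CPZ the 3 levels were -2.04, -3.01 and -1.73, and after 4 weeks the 4 levels were -1.15, -3.10, -1.48 and -2.11. All CPZ arrays were above every untreated array. The difference was 2.58 (SE 0.51; 5.99-fold; adjusted p = 0.087) at 2 weeks and 2.88 (SE 0.48; 7.37-fold; adjusted p = 0.063) at 4 weeks. Only 1 of the 3 untreated arrays was well above background for this probe.

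Fcgr1, the high-affinity activating receptor, had untreated levels of 0.60, -0.17 and -0.46. The levels were 2.38, 1.02 and 2.40 at 2 weeks and 2.71, 1.49, 3.01 and 2.18 at 4 weeks, all above the untreated arrays. The difference was 1.95 (SE 0.50; adjusted p = 0.16) at 2 weeks and 2.35 (SE 0.47; adjusted p = 0.088) at 4 weeks. Fcgr3, the low-affinity activating receptor, had untreated levels of -1.54, -2.19 and -2.30, then -0.20, -0.93 and -0.54 at 2 weeks and -0.86, -0.95, 0.44 and -0.64 at 4 weeks. It moved least of the 7 probes at 4 weeks, by 1.51 (SE 0.37; 2.85-fold; adjusted p = 0.13). At 2 weeks the difference was 1.45 (SE 0.39; adjusted p = 0.17).

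Fcer1g, the common chain, had untreated levels of 2.35, 1.29 and 1.24. At 2 weeks they were 3.42, 2.28 and 3.37, so the second array lay just below the highest untreated one, and 4-week levels were 3.94, 2.85, 4.40 and 3.64, all above. The difference was 1.39 (SE 0.48; adjusted p = 0.32) at 2 weeks and 2.08 (SE 0.45; adjusted p = 0.10) at 4 weeks. This was the one probe of the 7 whose groups overlapped at 2 weeks, while 8.33% of all probes had every 2-week array above every untreated array. At 4 weeks all 7 probes were separated, against 5.28% of all probes.

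Fcgr2b, the inhibitory receptor, was measured by 3 probes. The probe with 10 spots (A_51_P130095), whose spots within an array differed with an SD of 0.061 to 0.375, had untreated levels of -3.19, -3.85 and -4.14, then -1.35, -2.67 and -1.61 at 2 weeks and -0.71, -2.35, -0.96 and -1.16 at 4 weeks. Its differences were 1.85 (SE 0.49; adjusted p = 0.17) and 2.43 (SE 0.46; adjusted p = 0.081). A_51_P130101 gave 1.44 and 2.23, adjusted p = 0.30 and 0.090. The third probe (A_52_P545613), designed on another transcript accession, was not well above background on any untreated array, so only bounds hold. It was at least 2.51-fold higher at 2 weeks (adjusted p = 0.12) and at least 4.60-fold higher at 4 weeks (adjusted p = 0.055). Fcgr2b and Fcgr3 have similar extracellular sequence, and which transcripts each probe can bind was not tested.

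**Figure D1:**
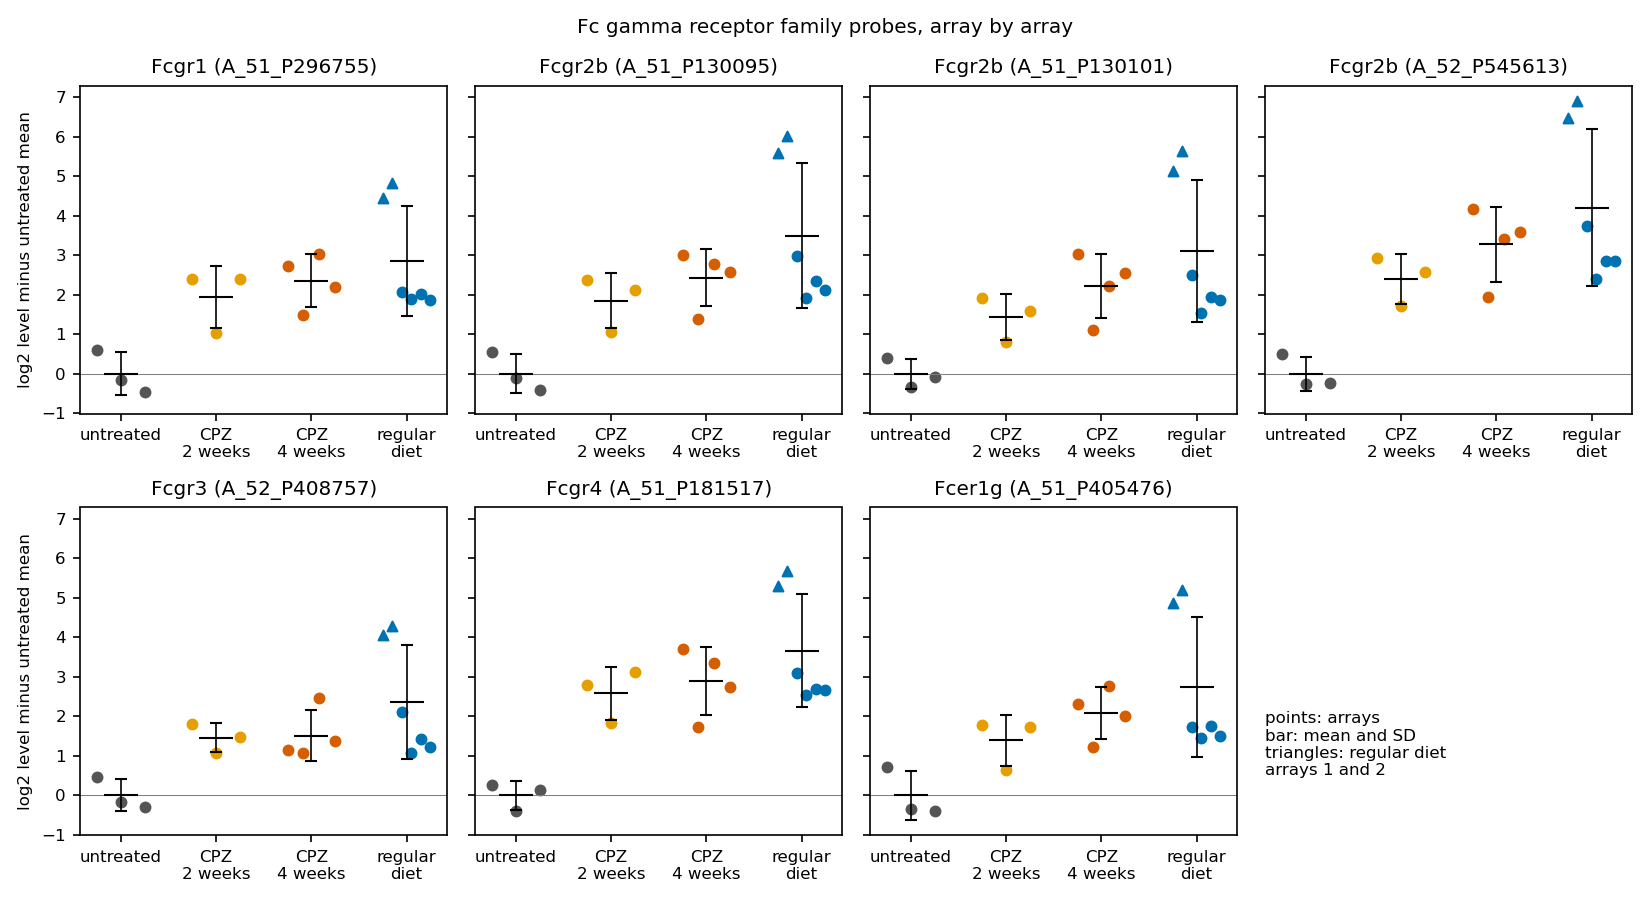
Level of each of the 7 probes of the 5 genes in every array, as log2 minus the mean of the 3 untreated arrays, by group; bars are means with SD and triangles are regular diet arrays 1 and 2. Apart from Fcer1g at 2 weeks, CPZ and regular diet arrays lie above all untreated arrays, and regular diet arrays 1 and 2 lie far above the other 4. The untreated points of Fcgr2b A_52_P545613 are not above background.

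The slides changed these calls. With the slide as a random block, all 5 genes were called at 4 weeks, where 1.24% of all genes were called higher, and Fcgr4 at 2 weeks, where 0.662% were. With it as a fixed block, 4 were called at 4 weeks (Fcgr3 had adjusted p = 0.052) against 1.83% of all genes, and again Fcgr4 at 2 weeks against 0.319%. Within slides and over the 6 probes measured on any untreated array, the 12 differences of 4 weeks against untreated, on the 2 slides that held both groups, ran from 1.45 to 3.76, and the 6 of 2 weeks against untreated, on the 1 such slide, from 1.04 to 2.68. Restricting the 4-week fit to the 2 groups compared called 3 genes, against 0.624% of all genes. Array weights, which were tried after seeing the data, called all 5 in each comparison against untreated, with 3.88% of all genes called higher at 2 weeks, 3.49% at 4 weeks and 2.68% on regular diet.

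From 2 to 4 weeks no probe passed the test in the fit as planned. The differences ran from 0.05 (Fcgr3, 95% interval -0.77 to 0.88, adjusted p = 0.96) to 0.87 (Fcgr2b A_52_P545613, -0.27 to 2.02, adjusted p = 0.51), and 0% of all genes were called higher. On the 1 slide that held both groups the 7 differences were 0.13 to 1.05. A fixed slide block gave 0.41 (Fcgr3) to 1.32 (Fcgr2b A_52_P545613), among them Fcgr1 at 1.02 and Fcer1g at 1.30, with adjusted p from 0.20 to 0.52. With array weights 2 probes of Fcgr2b passed the adjusted p at under 2-fold (A_51_P130101, 0.91, adjusted p = 0.013; A_52_P545613, 0.96, adjusted p = 0.016).

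Regular diet against untreated gave differences of 2.36 (Fcgr3) to 3.65 (Fcgr4) over the 6 probes measured on any untreated array, and a median of 3.11 over the 7 against -0.03 for all probes. Fcgr4 (3.65, SE 0.70, adjusted p = 0.023) and Fcgr2b (A_52_P545613, at least 8.81-fold higher, adjusted p = 0.047) were called, 2 of 5 genes, where 0.922% of all genes were called higher. The other 2 probes of Fcgr2b, measured on at least 2 untreated arrays, were not called (adjusted p = 0.073 and 0.12). Both called probes passed the dim filter through groups in which they were higher, and with the filter on every array, which left 4 member probes, no member was called, against 0.631% of all genes. Fcgr1 (2.86, adjusted p = 0.070), Fcgr3 (2.36, adjusted p = 0.15) and Fcer1g (2.75, adjusted p = 0.18) were not. All 7 probes had every regular diet array above every untreated array, against 4.89% of all probes. The Fcgr2b call was lost in 12 of 16 fits without 1 array (adjusted p = 0.036 to 0.23) and in 9 of 13 other alternatives, and the Fcgr4 call in 3 of 16 and 5 of 13. The Fcgr2b call did not hold with the slide as a fixed block (adjusted p = 0.074), where 1.05% of all genes were called higher. The random block called 3 members, against 1.35% of all genes, and the fit of only the 2 groups called none, against 0.691%. Leaving out untreated array 1, 2 or 3 left no member called, against 0.456%, 0.29% and 0.0242% of all genes. Within slides the 18 differences of the 6 measured probes ran from 0.61 to 4.57, on 3 slides.

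Regular diet arrays 1 and 2 stood apart on every probe. For Fcer1g the 6 levels were 6.49, 6.83, 3.36, 3.08, 3.39 and 3.13, and for Fcgr4 0.45, 0.82, -1.74, -2.32, -2.17 and -2.18. These 2 arrays were 29.1 and 36.6 times the untreated mean for Fcer1g, and arrays 3 to 6 between 2.7 and 3.4 times. The labels do not say which times the arrays belong to. Without both arrays, an alternative added after seeing the data, the differences from untreated fell to 1.46 (Fcgr3) to 2.74 (Fcgr4) over the 6 probes measured on any untreated array. Fcgr4 (adjusted p = 0.018) and Fcgr2b (adjusted p = 0.023 for A_52_P545613 and 0.036 for A_51_P130095) were called, against 0.856% of all genes.

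Against 4 weeks of CPZ, the regular diet group differed by 0.50 (Fcgr1, 95% interval -0.82 to 1.83) to 1.07 (Fcgr2b A_51_P130095, -0.57 to 2.70), with adjusted p from 0.38 to 0.62, and 0.00485% of all genes were called higher. Only arrays 1 and 2 lay above all 4-week arrays. Without them every probe lay slightly below the 4-week mean, by -0.05 (Fcgr3) to -0.47 (Fcer1g). Within the 3 slides that held both groups, all 21 differences of slide means were above 0 (0.12 to 1.59), but 14 of them include array 1 or 2. On these 2 slides the other regular diet array lay below the 4-week array by its family mean (the mean log2 difference of the 5 genes from untreated): array 6 was at 1.87 against 2.87, and array 5 at 2.05 against 2.58. On the third slide array 3 was 0.12 to 1.02 above the mean of the 2 arrays at 4 weeks. The group means of all 7 probes ran from untreated through 2 weeks and 4 weeks to regular diet, and neighbours in this order after untreated (2 against 4 weeks, 4 weeks against regular diet) did not differ beyond their spread in the fit as planned.

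**Figure D2:**
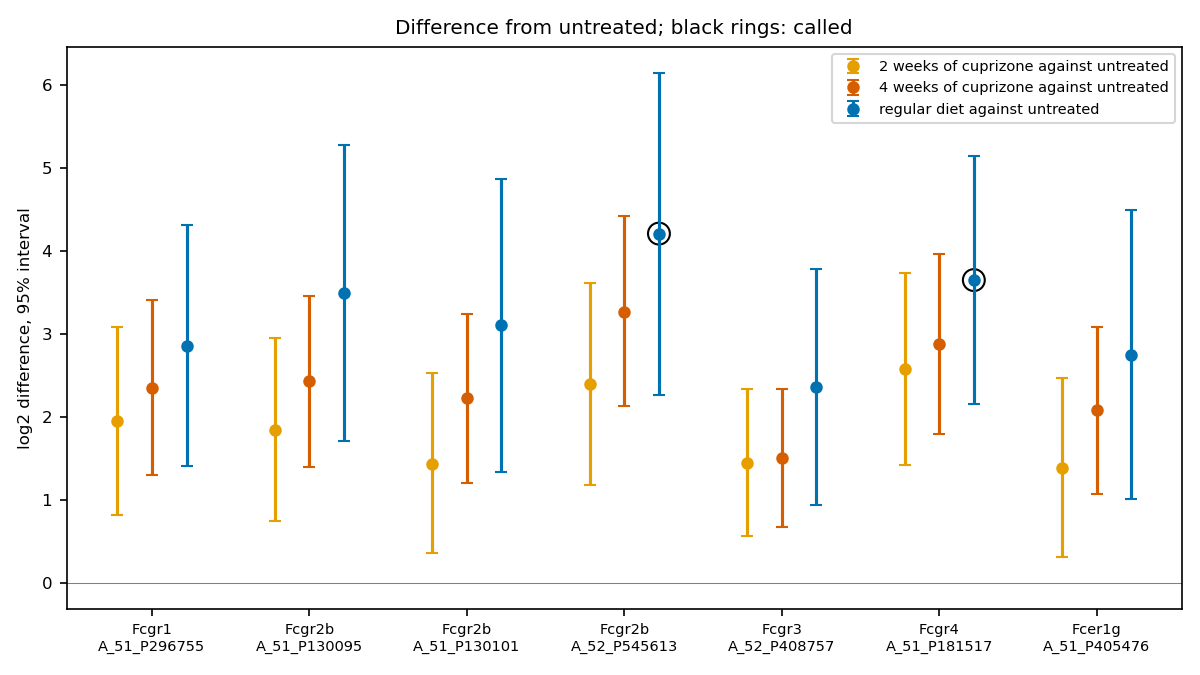
Log2 difference from untreated with its 95% interval for each of the 7 probes after 2 weeks of CPZ, 4 weeks of CPZ and regular diet; black rings mark called probes. All differences are above 0, and only Fcgr4 and Fcgr2b (A_52_P545613) are ringed, both for regular diet. For the latter probe only bounds hold against untreated.

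The levels of the family varied together across arrays. Over the 16 arrays, which share these groups, Pearson's r between probes of different genes was 0.925 (Fcgr3 and Fcgr4) to 0.983 (Fcgr2b A_51_P130095 and Fcer1g). Between probes of Fcgr2b it reached 0.993. Regular diet arrays 1 and 2 stood far above the rest on every probe, which can raise r here and below. How r changes without these arrays was not tested. The genes most alike to the brightest probe of each member included Rac2, Ly86 and Ctsz for Fcer1g (r 0.997, 0.996 and 0.996), C1qc and Ctsc for Fcgr1 (0.990 each), Csf2rb and Mpeg1 for Fcgr2b (0.993 and 0.992), Irf8 and Ucp2 for Fcgr3 (0.988 each) and Bcl2a1b for Fcgr4 (0.983). The 4 genes on chromosome 1 lie close together, with 7 other protein-coding genes among them in the RefSeq order. Of these, 5 were tested and none was called in any comparison, with differences of -0.32 to 0.80 at 4 weeks.

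Genes of the signalling pathway were given by lists chosen for the family. A list of receptors and adaptors around Fcer1g and ITAM signalling held 11 with a probe, of which 5 were tested and none was called at 4 weeks. The median was 0.47 at 4 weeks and -0.16 on regular diet, and 3 of the 5 lay between -0.16 and 0.47 at 4 weeks. Tyrobp, the adaptor of Trem2, differed by 2.42 (adjusted p = 0.081) and Hcst, another adaptor, by 2.35 (adjusted p = 0.071). Of the 6 activating kinases tested, none was called at 4 weeks (0.103% of all genes were called higher), and 5 were higher at an unadjusted p under 0.05, as were 5.05% of all probes. Their median difference was 1.09. The Src family kinase gene Lyn differed by 1.31 and Btk by 1.42, and Fgr, not well above background on any untreated array, was at least 2.59-fold higher, all short of the threshold.

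Among 15 adaptors and effectors, none was called at 4 weeks and 1 was called on regular diet (0.103% and 0.922% of all genes were called higher), Cybb, the catalytic subunit of the phagocyte oxidase (at least 5.23-fold higher, adjusted p = 0.0026). No untreated array was well above background for Cybb, which passed the dim filter through groups in which it was higher and was not tested with the filter on every array. At 4 weeks it was at least 2.81-fold higher (adjusted p = 0.059), and the adaptor Lat2 differed by 2.06 and the GTPase Rac2 by 1.96. Of the inhibitory partners, 0 of 9 tested were called at 4 weeks and 3 of 10 on regular diet, against the same 0.103% and 0.922%: Ptprc, the phosphatase CD45 (3.44, adjusted p = 0.020), Lilrb4a, an inhibitory receptor (at least 5.26-fold higher, adjusted p = 0.029), and Cd300a, by 1 of its 2 probes, the last 2 named after their values were seen. Lilrb4a was above background on no untreated array and entered the test through the regular diet group alone. Its call was lost in 4 of 16 fits without 1 array (adjusted p = 0.018 to 0.19) and in 5 of 13 other alternatives. The Ptprc call was lost without any 1 untreated array. Ptpn6, the phosphatase SHP-1, differed by 2.11 at 4 weeks (adjusted p = 0.089). Of the other Fc receptor and IgG handling genes, 4 of 12 were tested. Fcrls, an Fc receptor-like gene of microglia, was called at 4 weeks (2.24, SE 0.31, adjusted p = 0.047). This call was lost in 8 of 10 fits without 1 array (adjusted p = 0.026 to 0.22) and in 6 of 14 other alternatives. Trim21, a cytosolic antibody receptor, was called on regular diet (1.51, adjusted p = 0.044; named after its value was seen), a call that 13 of 16 fits without 1 array lost (adjusted p = 0.0069 to 0.24). Of the 10 ligand genes, the immunoglobulins had no named probe. Ptx3, a soluble pentraxin above background on no untreated array, passed the dim filter through other groups. It was at least 1.49-fold higher at 4 weeks (adjusted p = 0.35). On regular diet 1 of its 2 probes was called, where 0.922% of all genes were called higher. The probe listed for Ptx3 was lower there with the recorded assignment (-0.11) and with normexp, another background correction (-0.24).

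**Figure D3:**
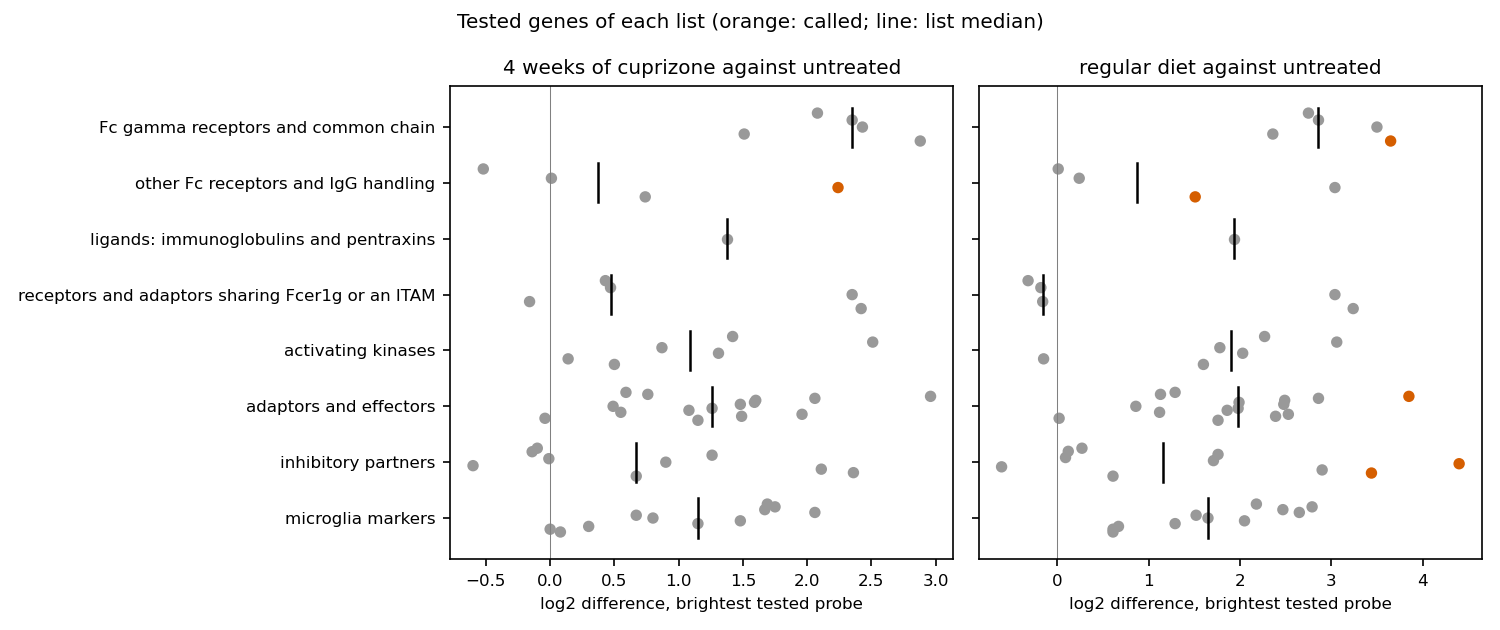
Log2 difference of each tested gene of the family and 7 related lists, 4 weeks of CPZ (left) and regular diet (right) against untreated, with the list median as a line and genes whose brightest probe was called in orange; Fgr, Cybb, Lilrb4a and Ptx3 were above background on no untreated array. Family genes lie at 1.51 to 2.88 at 4 weeks by their brightest probe.

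None of 11 microglia markers was called in any comparison. Their median difference was 0.43 at 2 weeks (lowest value -0.60), 1.15 at 4 weeks and 1.65 on regular diet. In these comparisons 3, 6 and 7 of them were higher at an unadjusted p under 0.05, as were 4.25%, 5.05% and 6.05% of all probes. Their summed level, relative to the 75th percentile, was 27.4 to 58.1 in untreated, 38.9 to 89.6 at 2 weeks, 65.5 to 150 at 4 weeks and 75.4 to 644 on regular diet; all 11 were above background on every array, and the part of this in the family's differences was not tested. C1qc, a complement subunit gene, differed by 2.06 at 4 weeks (adjusted p = 0.11). Of 8 monocyte markers, 4 were above background on no array, among them Ccr2, Cd209a and F10, and the mean log2 level of the 8 was -4.82 to -4.06 in untreated arrays, -4.72 to -3.88 at 2 weeks, -4.43 to -4.21 at 4 weeks and -4.86 to -4.23 on regular diet. Their summed level was 8.45 to 14 in untreated arrays and 15.2 to 17.1 at 2 weeks, where 1 of the 2 tested was higher at an unadjusted p under 0.05. Of 8 neutrophil markers, Elane, Ngp, Retnlg and Cxcr2 were above background on no array. No gene of the monocyte, neutrophil, natural killer and T cell, B cell, mast cell, choroid plexus or neuron lists was called against untreated. Nkg7 of the killer and T cell list, 1 of 4 tested, was higher at an unadjusted p under 0.05 in each comparison (1.44, 1.47 and 1.63 at 2 weeks, 4 weeks and on regular diet), and Cd79b of the B cell list, 1 of 3, at 4 weeks and on regular diet (1.5 and 1.93). Nkg7 was above background on 1 of 3 untreated arrays, and both genes were named after their values were seen. Of 5 choroid plexus markers, 3 were at least 2-fold higher at 4 weeks, as were 2.58% of all probes, and none passed an unadjusted p under 0.05. The part of these in the family's differences was not tested. Choroid plexus markers, from tissue that borders the dissected tract, summed to 2.37 to 12.2 in untreated arrays and 1.15 to 47.0 at 4 weeks. The border macrophage marker Ms4a7 was called on regular diet (3.75, adjusted p = 0.0050; 0.053 without untreated replicate 3), 1 of 7 in its list against 0.922% of all genes, and the list's median difference was 0.19 with a lowest value of -0.25. At 2 weeks its median difference was 0.78, with a highest value of 2.52, and 2 of 7 were higher at an unadjusted p under 0.05, against 4.25% of all probes. Array 1 stood far above the others there: the list's mean difference from untreated was 2.65, 0.21 and 0.64 in arrays 1, 2 and 3. The 7 border macrophage markers summed to 0.450 to 0.965 in untreated, 0.685 to 3.85 at 2 weeks, 0.877 to 1.13 at 4 weeks and 1.22 to 4.30 on regular diet, a part that was not tested either.

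None of 9 oligodendrocyte and myelin markers was called in any comparison. Of all genes, 31 of 20404 were called lower at 2 weeks, 20 of 20404 at 4 weeks and 3 of 20608 on regular diet. The markers had median differences of -3.21 at 2 weeks, -2.66 at 4 weeks and -1.47 on regular diet. In these comparisons 9, 8 and 0 of them were lower at an unadjusted p under 0.05, as were 5.09%, 5.05% and 4.61% of all probes. They summed to 618 to 1330 in untreated, 32.5 to 271 at 2 weeks, 43.8 to 375 at 4 weeks and 98.2 to 1250 on regular diet. Mal, a myelin proteolipid gene, differed by -3.50 at 4 weeks (adjusted p = 0.091). In regular diet arrays 4, 5 and 6 the mean of the myelin markers was -0.03, 0.08 and 0.63 from the untreated mean, while the mean of the family was 1.77, 2.05 and 1.87 above it. In arrays 1 and 2 the myelin mean was -3.49 and -3.46 and the family mean 4.85 and 5.20. Array 3, with a myelin mean of -2.73, had a family mean of 2.40.

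**Figure D4:**
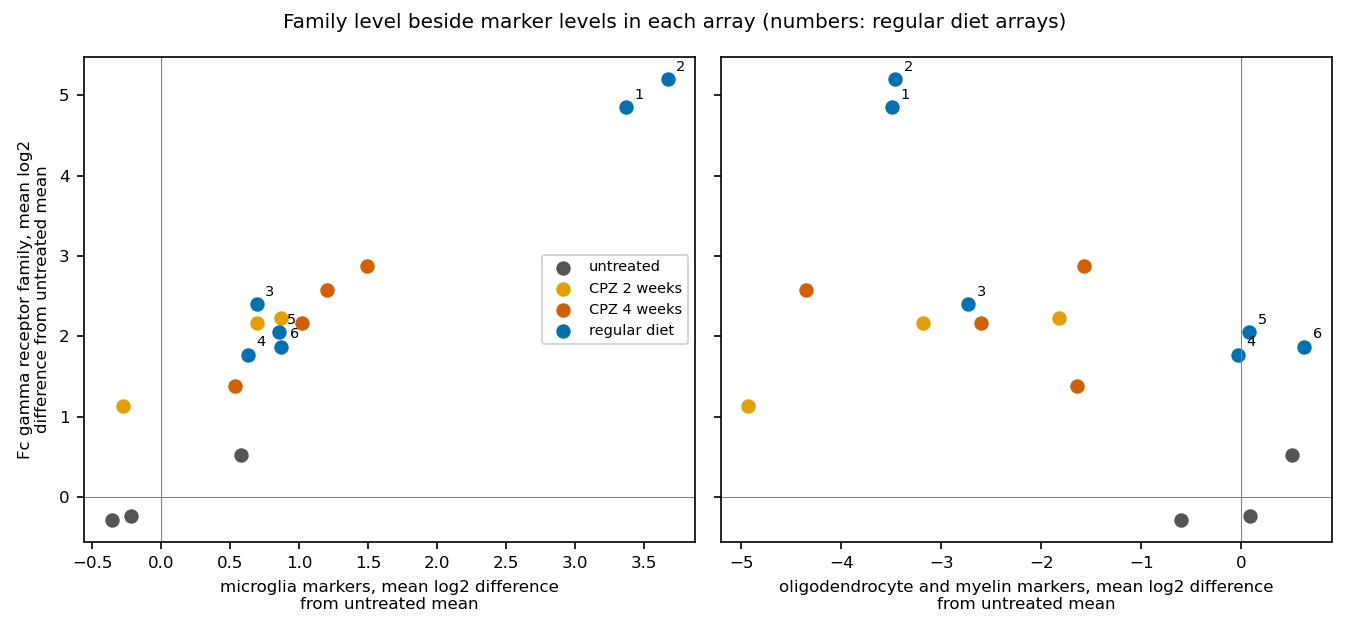
Mean log2 difference from the untreated mean of the 5 family genes in each array against that of 11 microglia markers (left) and 9 myelin markers (right); numbers mark the regular diet arrays. Regular diet arrays 1 and 2 are highest on the family and on microglia markers, and arrays 4 to 6 have myelin near the untreated level with the family still at 1.77 to 2.05.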

How the data were processed

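The 16 Agilent arrays each held RNA from the corpus callosum of a mouse and 41174 probes, of which 66.7% carry a gene name here (18749 genes). The deposited scanner files, made by the authors with Feature Extraction (11.0.1.1 per the file headers), hold processed signal intensity, and normexp used the deposited median intensity with an offset of 50. The authors also deposited a processed table of log2 values, centred on the untreated median, which was used to assign arrays to samples and as an alternative. Signals were log2 transformed minus the 75th percentile of each array, flagged spots (48 to 126 per array) were left out, repeated spots were averaged, and testing kept those probes for which some group had it well above background throughout (27505 or 27785). limma 3.58.1 in R 4.3.3 was fitted to the 10 arrays without regular diet for the CPZ comparisons and to all 16 for regular diet, with Benjamini-Hochberg adjustment, and was tested on simulated data. The study's methods name ANOVA with Tukey's test, run as an alternative. The members and lists were chosen with earlier results of these data known. In each list the brightest tested probe stood for a gene, and up to 4 genes were named, those that differed most at 4 weeks, of at least 2-fold; some items are not reported here. The number of arrays limits the precision. Replicate numbers paired nothing: deviations of same-numbered arrays correlated from -0.806 to 0.343.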

Additional observations from a re-analysis of the deposited data

How the results depend on the processing

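Against untreated, 534 of 537 member values kept their direction under the alternatives, and outside the recorded array assignment and normexp all 495 did. The exceptions were Fcgr2b (A_52_P545613) at 2 weeks with normexp (-0.02) and, with the array recorded for each sample, Fcgr1 (-0.24) and Fcgr4 (-0.05) at 4 weeks. Normexp adds an offset of 50 to each signal, which shrinks dim probes. The family count at 2 weeks was 1 with the slide as a fixed or random block and 5 with array weights; at 4 weeks it was 1 with median scaling (0.137% of all genes called higher), 4 and 5 with the slide as a fixed and random block, 3 with only the 2 groups, and 5 with array weights; on regular diet against untreated it was 0 with the recorded assignment, normexp, the filter on every array, the replicate block, only the 2 groups and the methods' test, 1 with quantile or median scaling, no dim filter (0.670%, 0.553% and 0.483% of all genes) and the fixed slide block, 3 with the random slide block and 5 with array weights. The array weights and the omission of regular diet arrays 1 and 2 were chosen after seeing the data, and the former called 591 to 2096 genes overall. Leaving out each array in turn gave 0 to 3 genes at 4 weeks. It gave 3 without 4-week replicate 2 (0.621% of all genes called higher) and 1 without 2-week replicate 2 (0.289%). For regular diet it gave 0 to 2, against 0.0242% to 0.992% of all genes. It gave 0 to 0 in the other comparisons. The cause was not tested in these cases.

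The replicate block left 0 family genes called in every comparison. For 4 against 2 weeks the direction turned with the recorded assignment for Fcgr1 (-0.69), Fcgr2b (-0.31, -0.08 and -0.58), Fcgr3 (-0.27), Fcgr4 (-0.83) and Fcer1g (-0.35), with array weights for Fcgr1 (-0.12), Fcgr3 (-0.10) and Fcgr4 (-0.26), and, leaving out 1 array, for Fcgr1 (-0.05, range -0.05 to 0.69), Fcgr3 (-0.13 and -0.26, range -0.26 to 0.23) and Fcgr4 (-0.08, range -0.08 to 0.68). For regular diet against 4 weeks it turned without arrays 1 and 2 for Fcgr1 (-0.39), Fcgr2b (-0.09, -0.26 and -0.30), Fcgr3 (-0.05), Fcgr4 (-0.14) and Fcer1g (-0.47), and with array weights for Fcgr1 (-0.03), Fcgr2b (-0.32 and -0.37) and Fcer1g (-0.11). With the recorded assignment the listed genes also turned: C1qb (-0.08), C1qc (-0.02), Dok1 (-0.15) and Trim21 (-0.32) at 4 weeks, Trim21 on regular diet (-0.37), Ptx3 (-0.29, -0.99 and -0.11), Mal (1.13 and 0.52), Mobp (0.63 and 0.03) and Mog (1.82 and 1.02), and with normexp Cybb (-0.13), Fgr (-0.08), Ms4a7 (-0.15) and Ptx3 (-0.07, -0.09 and -0.24).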
